A study of Saccharomyces cerevisiae with 36 samples.

Results

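The 31 genes described here are listed for Saccharomyces cerevisiae sterol synthesis from acetyl-CoA to ergosterol and for the esterification, transfer and uptake of sterols. They were taken by name from the gene tables, which hold 7122 gene lines, and all 31 were found and passed the filter on low counts. By role they are 9 genes from acetyl-CoA to farnesyl diphosphate, 14 from squalene synthesis to ergosterol, 2 electron donors and 2 esterifying enzymes. The other 4 are listed under sterol transfer and uptake. The rule used no measured value, but the genes were chosen with earlier results of these data known.

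Ergosterol is the main sterol of yeast membranes. Its synthesis from squalene consumes molecular oxygen at several steps, some carried out by haem enzymes, and yeast growing without oxygen has to import sterol from the medium. The zinc cluster factors Upc2 and Ecm22 bind sterol response elements upstream of many of these genes, and Hap1 is a haem-responsive factor with targets among them. Excess sterol is stored as esters, made by the acyltransferases Are1 and Are2.

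RNA was sequenced from chemostats, continuous cultures in which a nutrient limits growth, sampled after 48 to 60 h at steady state. N-lim cultures were limited for nitrogen on 6% glucose, Glu-lim for glucose on 0.75% glucose, Et-lim for ethanol on 0.5% ethanol, and OxGlu-lim, labelled as limited for oxygen and glucose, had 1% glucose. The design text calls the 3 libraries of a group biological triplicates. Each limitation had 3 libraries in each of 3 sets, which gives 12 groups and 36 libraries. The DASGIP tagged set came from 1 L reactors and the MC tagged set from the vessels labelled MC, both with HAP1-TAP, a CEN.PK 113-5D strain whose Hap1 protein ends in a CBP-ProtA tag. The MC untagged set was CEN.PK 113-5D itself in MC vessels. All groups share that background, the tagged strain is a single construct, and nothing in the labels gives a batch or date, so the vessel difference and the strain difference can each not be told apart from a batch of the set. Carbon source and carbon amount also differ between limitations. Whether the medium held sterols is not given in the sources used here.

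Counted reads, in M (mega), ranged from 10.7 M to 22.5 M per library, with a median of 16.7 M. The 31 genes took between 0.443% and 1.76% of them. The smallest count of a sterol gene in any library was 13, for HES1, and every other sterol gene had at least 150 reads in every library. Mitochondrially encoded RNA took 9.19% to 16.5% of reads under N-lim, 16.9% to 25.2% under OxGlu-lim, 25.1% to 38.6% under Glu-lim and 31.5% to 46.6% under Et-lim. Levels are given in CPM, read counts brought to a library of common size, with library sizes scaled by TMM, a factor that centres the bulk of genes between libraries. Differences are log2 values with their standard error (SE). A gene was called at an adjusted p under 0.05 in edgeR's quasi-likelihood test, adjusted after Benjamini and Hochberg over 6612 genes. With library size alone in place of TMM, the median of all genes moved by 0.43 for N-lim against Glu-lim, by -0.21 for Et-lim against Glu-lim, by 0.28 for OxGlu-lim against Glu-lim, by 0.64 for N-lim against Et-lim, by 0.49 for OxGlu-lim against Et-lim, by 0.15 for N-lim against OxGlu-lim and by 0.15 for tagged against untagged strain. All changes below are relative to the TMM scale. In a bulk sample, fewer cells that express a gene and less of its RNA per cell cannot be told apart.

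The stretches below show the letters TCGTATA or TCGTTTA, forms of the sterol response element, upstream of genes on which the results turn. They were read from the RefSeq R64 genome of strain S288C, 5′ to 3′ along the strand of the gene. Capitals mark 1 match in each stretch, which appears as TATACGA or TAAACGA where it lies on the opposite strand; the stretches of ERG25 and ERG3 hold further matches in lower case.
HES1 (chrXV:781634-781690, plus strand): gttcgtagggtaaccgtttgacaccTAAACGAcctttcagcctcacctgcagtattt
PBI1 (chrXVI:28300-28356, minus strand): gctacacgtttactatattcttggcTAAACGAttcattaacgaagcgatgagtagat
AUS1 (chrXV:349305-349361, plus strand): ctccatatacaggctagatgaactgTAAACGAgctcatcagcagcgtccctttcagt
PDR11 (chrIX:332841-332897, minus strand): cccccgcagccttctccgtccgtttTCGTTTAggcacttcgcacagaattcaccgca
ERG1 (chrVII:848774-848830, minus strand): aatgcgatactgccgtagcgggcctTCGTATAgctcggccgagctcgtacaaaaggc
ERG25 (chrVII:610076-610132, plus strand): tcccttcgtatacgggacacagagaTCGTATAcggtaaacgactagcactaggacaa
ERG26 (chrVII:496607-496663, minus strand): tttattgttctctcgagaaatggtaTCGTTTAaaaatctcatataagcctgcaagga
ERG28 (chrV:238263-238319, minus strand): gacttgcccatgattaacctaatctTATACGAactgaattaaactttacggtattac
ERG3 (chrXII:253550-253606, plus strand): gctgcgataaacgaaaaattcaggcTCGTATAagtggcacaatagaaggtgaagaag
NCP1 (chrVIII:190287-190343, plus strand): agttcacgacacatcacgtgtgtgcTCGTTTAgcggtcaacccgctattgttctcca
CYB5 (chrXIV:417546-417602, minus strand): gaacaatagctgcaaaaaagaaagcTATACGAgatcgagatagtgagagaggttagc
ARE1 (chrIII:211750-211806, plus strand): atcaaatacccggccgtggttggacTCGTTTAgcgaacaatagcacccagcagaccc
Within 500 bases before to 50 after the start codon, searched on both strands, TCGTATA was present upstream of 9 of the 31 genes (29.0%) against 7.32% of 6000 promoters, and TCGTTTA upstream of 20 (64.5%) against 9.28%. At least 1 of these was present for 26 of the 31 genes (83.9%), against 15.6% of all promoters. HMG2, ERG12, IDI1, ERG11 and ARE2 held neither in this window. In a shorter window of 250 bases, TCGTATA was found for 3 sterol genes (9.68%, against 4.15% of promoters) and TCGTTTA for 11 (35.5% against 5.48%). In the window of 500 bases, the Hap1 site was found for 0 of the 31 genes and for 0.383% of promoters. The Rox1 core ATTGTT was found there for 61.3% of the 31 genes and 53.2% of promoters. A match is a description of the reference sequence and not a measurement of binding, and the cultured strain's own sequence was not used here.

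Sterol genes differed between limitations in all 6 pairs. Most genes after squalene were lower under N-lim and Et-lim than under Glu-lim and OxGlu-lim, HES1 and PBI1 by far the most, and AUS1 and PDR11 were high under OxGlu-lim. Taking the mean over the 3 sets, N-lim against Glu-lim had 6 of the 31 genes higher and 22 lower, where 34.3% and 37.4% of all genes tested were called in those directions. Their median log2 difference was -0.45, against -0.02 over all genes tested. At least 2-fold lower were 9 sterol genes, where the share of all genes was 9.23%. With library size alone the split was 14 higher and 14 lower.

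Et-lim against Glu-lim gave 2 higher and 23 lower, beside 30.6% and 28.7% of all genes, with a median of -0.41 against 0.01. Of these, 9 were lower by at least 2-fold, against 3.52% of all genes. The 2 higher were AUS1 and MVD1, and MVD1 lost its call without MC untagged Glu-lim replicate 1 (0.12, adjusted p = 0.0546). With library size alone there were 0 higher.

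OxGlu-lim against Glu-lim went the other way, with 20 higher and 3 lower, beside 32.9% and 32.3% of all genes. The median difference was 0.34 against 0.01, and 5 genes were higher by at least 2-fold (5.13% of all genes): AUS1, PDR11, ERG26, NCP1 and ERG28. The 3 lower were HMG1, ERG5 and ERG8, and with library size alone ERG8 was at 0.04 and not called (adjusted p = 0.537). These 3 comparisons share the Glu-lim libraries.

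Against Et-lim, OxGlu-lim had 27 higher and 2 lower (36.1% and 35.7% of all genes), with a median of 1.03, and 16 genes were higher by at least 2-fold (6.47% of all genes). Against OxGlu-lim, N-lim had 4 higher and 27 lower (35.4% and 36% of all genes), with a median of -1.08, and 17 were at least 2-fold lower (8.8% of all genes). N-lim against Et-lim was mixed on the TMM scale, with 17 higher and 9 lower (37.4% and 36.7% of all genes) and a median of 0.16, and with library size alone it became 26 higher and 1 lower.

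**Figure D1:**
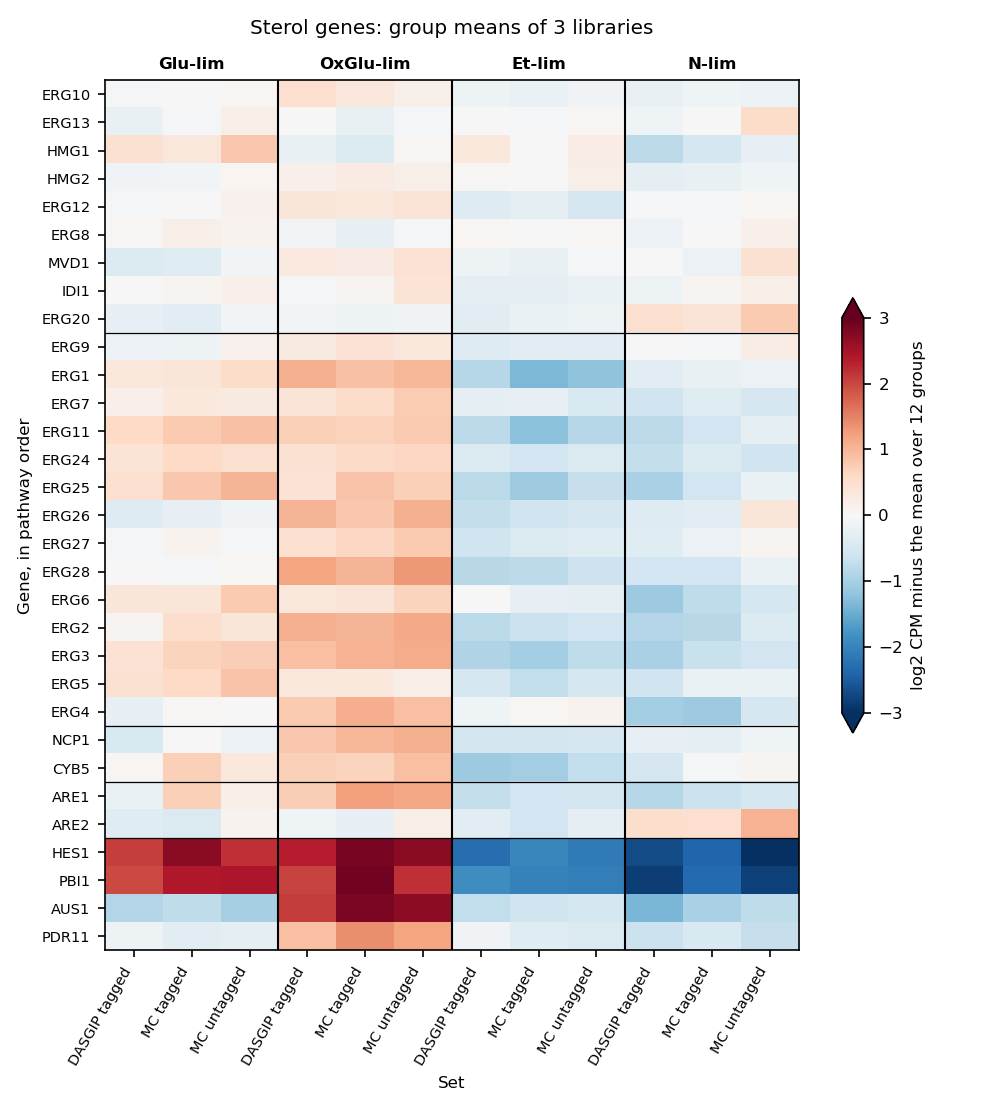
Heat map of the 31 sterol genes (rows, in pathway order; lines separate the roles) in 12 groups (columns, 3 libraries each). Colour is the group's mean log2 CPM minus the mean of the gene over the 12 groups. Red OxGlu-lim columns and blue Et-lim and N-lim columns dominate the lower part of the map, and HES1 and PBI1 are red under Glu-lim as well.

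By group means over the sets, 22 genes were highest under OxGlu-lim, 6 under Glu-lim (HMG1, ERG8, ERG11, ERG25, ERG6 and ERG5) and 3 under N-lim (ERG13, ERG20 and ARE2). The highest and the next limitation were not called apart for HMG2, IDI1, ERG24, HES1, PBI1, ERG8, ERG11, ERG25 and ERG6. The lowest place was Et-lim for 15 genes and N-lim for 13. Et-lim and N-lim were not called apart there for ERG10, ERG24, ERG2 and ARE1, nor Glu-lim and Et-lim for ERG20. No share over all genes was worked out for these places. In 11 genes every OxGlu-lim library lay above each of the other 27 libraries, a separation that 3.16% of all genes tested showed. These were ERG10, ERG1, ERG26, ERG27, ERG28, ERG2, ERG3, ERG4, NCP1, AUS1 and PDR11. In 12 genes all Glu-lim and OxGlu-lim libraries lay above all N-lim and Et-lim libraries, against 0.65% of all genes: ERG1, ERG7, ERG11, ERG24, ERG25, ERG6, ERG2, ERG3, ERG5, ARE1, HES1 and PBI1.

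The early genes, which make the isoprenoid farnesyl diphosphate, showed small differences. Of the 9, N-lim against Glu-lim had 3 higher and 4 lower, Et-lim had 1 higher and 4 lower, and OxGlu-lim had 5 higher and 2 lower. Over all genes tested the shares higher and lower were 34.3% and 37.4%, 30.6% and 28.7%, and 32.9% and 32.3%, and the N-lim shares of these 9 genes were near them. No early gene reached 2-fold in these 3 comparisons except HMG1 under N-lim. ERG13, which encodes HMG-CoA synthase, spanned 302, 347 and 434 CPM under Glu-lim (lowest, median and highest of 9 libraries, as in the triplets that follow) and 282, 349 and 376 under OxGlu-lim. Under Et-lim it was at 334, 358 and 414 CPM, and under N-lim at 317, 363 and 565 CPM. These ranges overlapped, and its 3 highest libraries were the MC untagged N-lim ones. ERG13 was higher by 0.16 ± 0.04 (adjusted p = 0.00192) under N-lim than under Glu-lim.

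HMG1 and HMG2 encode the HMG-CoA reductase isoenzymes, which catalyse the controlled step of the mevalonate route. HMG1 stood at 543, 584 and 783 CPM under Glu-lim, 245, 417 and 465 under OxGlu-lim, 409, 499.6 and 562 under Et-lim and 234, 309 and 372 under N-lim. All Glu-lim libraries lay above all OxGlu-lim and N-lim libraries, and overlapped those of Et-lim. HMG1 was lower than under Glu-lim in all 3 comparisons, with -1.05 ± 0.07 (adjusted p = 1.46e-13) under N-lim, -0.35 ± 0.07 under Et-lim and -0.71 ± 0.07 (adjusted p = 1.03e-09) under OxGlu-lim. It was also lower under OxGlu-lim than under Et-lim (-0.36), a difference that was 0.12 and not called with library size alone.

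HMG2 moved far less, at 128, 144 and 152 CPM under Glu-lim, 146, 161 and 184 under OxGlu-lim, 131, 154 and 180.5 under Et-lim and 113, 127 and 136 under N-lim. Its ranges overlapped except that every OxGlu-lim library exceeded every N-lim one. Under OxGlu-lim HMG2 rose by 0.24 ± 0.06 (adjusted p = 0.000504) while HMG1 fell. Per kilobase of coding length, the ratio of HMG1 to HMG2 within a library, which no scaling of libraries touches, was 3.73 to 5.10 under Glu-lim, 2.96 to 3.95 under Et-lim, 2.06 to 2.90 under N-lim and 1.67 to 2.92 under OxGlu-lim. No N-lim or OxGlu-lim library reached the lowest Et-lim or Glu-lim ratio.

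**Figure D2:**
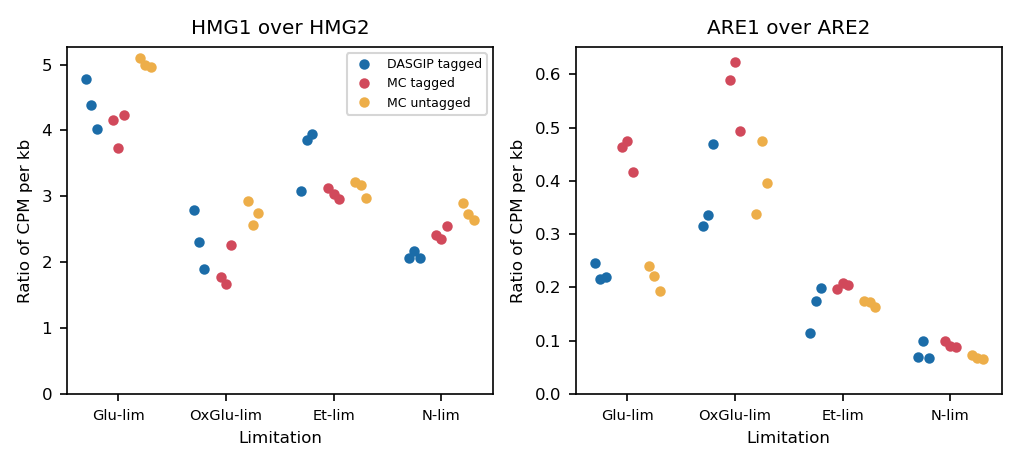
Ratio of CPM per kilobase of coding length within each of the 36 libraries, for HMG1 over HMG2 (left) and ARE1 over ARE2 (right). Each point is 1 library, coloured by set. HMG1 exceeds HMG2 in every library, between 1.67 and 5.10, and ARE1 stays below ARE2, between 0.0663 and 0.623.

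Among the mevalonate enzymes, ERG12 (mevalonate kinase) fell by 0.41 under Et-lim and rose by 0.34 under OxGlu-lim, both against Glu-lim. ERG8, the phosphomevalonate kinase, was at 55.6, 64.7 and 65.4 CPM under Glu-lim, 47.5, 52.0 and 58.0 under OxGlu-lim, 55.4, 59.1 and 63.6 under Et-lim and 49.4, 58.4 and 66.3 under N-lim, with all ranges overlapping. It fell by 0.24 ± 0.04 (adjusted p = 1.1e-05) under OxGlu-lim against Glu-lim, the difference that was 0.04 and not called with library size alone. The thiolase gene ERG10, which starts the route, rose by 0.34 ± 0.04 (adjusted p = 1.02e-08) under OxGlu-lim.

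MVD1 encodes mevalonate pyrophosphate decarboxylase and was the only one of the 31 with its lowest mean under Glu-lim. Its libraries spanned 119, 123 and 177 CPM there, 175, 202 and 234 under OxGlu-lim, 128, 149 and 162 under Et-lim and 122, 168 and 224 under N-lim. Glu-lim and OxGlu-lim met only through MC untagged Glu-lim replicate 3, the highest of its group. MVD1 rose by 0.61 ± 0.05 (adjusted p = 2.9e-11) under OxGlu-lim and by 0.39 ± 0.05 under N-lim.

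ERG20, farnesyl diphosphate synthase, was highest under N-lim. It ranged over 229.7, 256 and 304 CPM under Glu-lim, 252, 278 and 295 under OxGlu-lim, 226, 263 and 275 under Et-lim and 359, 434 and 538 under N-lim. Every N-lim library lay above all 27 others, while the other 3 limitations overlapped. The rise against Glu-lim was 0.77 ± 0.05 (adjusted p = 1.95e-15). IDI1, the isopentenyl diphosphate isomerase, fell by 0.33 ± 0.05 (adjusted p = 8.43e-07) under Et-lim and was not called under N-lim (-0.04) or OxGlu-lim (0.08). A call for ERG20 under OxGlu-lim against Glu-lim (0.10, adjusted p = 0.0498) ended when any 1 of 26 libraries was left out, with values from 0.09 to 0.11.

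All 14 genes from squalene synthesis to ergosterol were higher under OxGlu-lim than under Et-lim (median 1.31). All 14 were lower under N-lim than under OxGlu-lim (median -1.24). Of all genes tested, 36.1% and 36% were called in those directions. Against Glu-lim, 12 fell and 2 rose under N-lim, beside 37.4% and 34.3% of all genes. Under Et-lim 13 fell (28.7% of all genes), with only ERG4 not called. Under OxGlu-lim 9 rose and 1 fell, beside 32.9% and 32.3% of all genes.

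Of the oxygen-using steps, ERG1, ERG11, ERG25, ERG3 and ERG5 all fell under N-lim and all fell under Et-lim against Glu-lim. Their log2 differences were -1.36 to -0.65 and -1.72 to -1.22, and 37.4% and 28.7% of all genes were called lower there. Under OxGlu-lim these 5 genes divided, with ERG1 and ERG3 higher, ERG5 lower and ERG11 and ERG25 not called. ERG1, squalene epoxidase, was at 697, 869.9 and 1000.3 CPM under Glu-lim, 1092, 1299 and 1394 under OxGlu-lim, 247, 269 and 399 under Et-lim and 485, 535 and 692 under N-lim. The 4 ranges did not overlap, although the highest N-lim library lay close to the lowest of Glu-lim. The differences from Glu-lim were -1.54 ± 0.06 (adjusted p = 8.04e-19) under Et-lim, -0.65 ± 0.06 under N-lim and 0.57 ± 0.06 (adjusted p = 1.89e-09) under OxGlu-lim.

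ERG11 encodes the cytochrome P450 that demethylates lanosterol, the target of azole drugs. It stood at 2038, 2631 and 3121 CPM under Glu-lim and 2011, 2526 and 3165 under OxGlu-lim, which overlapped nearly throughout. Under Et-lim it was 654, 832 and 991 CPM and under N-lim 882, 1054 and 1305 CPM, both below every Glu-lim and OxGlu-lim library. It fell by 1.72 under Et-lim and by 1.30 under N-lim (adjusted p = 6.32e-19 and 8.75e-17), and the OxGlu-lim difference was -0.03 ± 0.07 (adjusted p = 0.735).

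ERG25, the sterol methyl oxidase that acts with ERG26 and ERG27, had the highest level of the 31 per kilobase, with a median of 2256 CPM per kb under Glu-lim. In CPM it held 1383, 2099 and 2558 under Glu-lim, 1488, 1868 and 2469 under OxGlu-lim, 528, 646 and 845 under Et-lim and 582, 768 and 1034 under N-lim. Glu-lim and OxGlu-lim overlapped, and N-lim and Et-lim overlapped below them. It fell by 1.36 ± 0.07 under N-lim and fell by 1.63 ± 0.07 under Et-lim, and was not called under OxGlu-lim (-0.10, adjusted p = 0.156).

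ERG3, the C-5 desaturase, ranged over 819, 1084 and 1250.4 CPM under Glu-lim, 1295, 1440.1 and 1655 under OxGlu-lim, 333, 377 and 464 under Et-lim and 362, 435 and 524 under N-lim. OxGlu-lim lay above all, Glu-lim in the middle, and Et-lim and N-lim overlapped at the bottom. The differences from Glu-lim were -1.50 ± 0.06 (adjusted p = 4.86e-19) under Et-lim, -1.35 ± 0.06 under N-lim and 0.41 ± 0.06 (adjusted p = 4.11e-07) under OxGlu-lim. ERG5, the cytochrome P450 that desaturates the side chain, was the only one of the 14 called lower under OxGlu-lim than under Glu-lim.

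ERG5 libraries spanned 922, 1115 and 1384 CPM under Glu-lim, 804, 873 and 1041 under OxGlu-lim, 419.7, 469 and 569 under Et-lim and 476, 602 and 678 under N-lim. The first pair overlapped and lay above the second, which also overlapped. Under OxGlu-lim it fell by 0.35 ± 0.05 (adjusted p = 7.65e-07), but by set it was -0.10 (not called) for DASGIP tagged, -0.29 for MC tagged (not called without MC tagged OxGlu-lim replicate 2, -0.23, adjusted p = 0.0653) and -0.67 for MC untagged, and with library size alone the mean was -0.08 and not called.

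**Figure D3:**
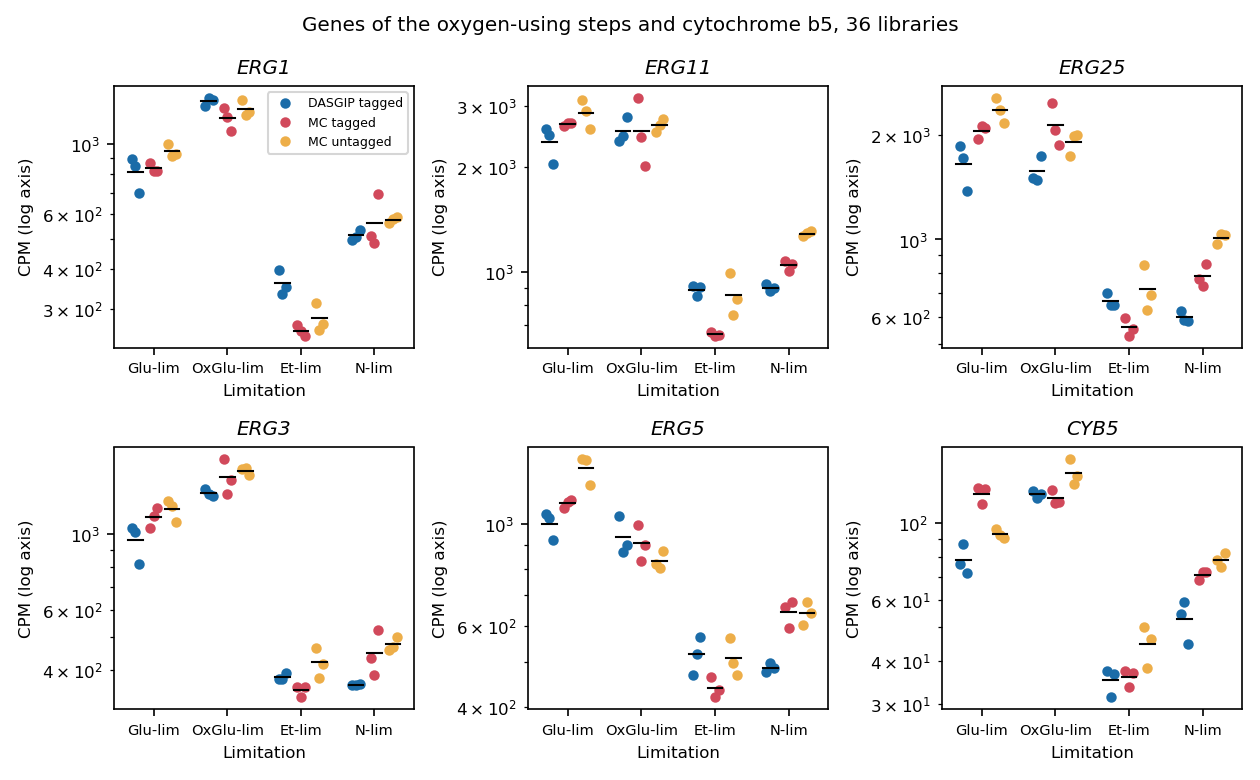
CPM (log axis) of the 5 genes of oxygen-using steps and of CYB5 in all 36 libraries, by limitation. Points are libraries coloured by set and bars are means of 3. ERG1 separates all 4 limitations, while ERG11 and ERG25 sit at like levels under Glu-lim and OxGlu-lim and lower under Et-lim and N-lim.

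Among the other genes after squalene, ERG26, ERG28, ERG4, ERG2 and ERG27 rose under OxGlu-lim. ERG26, the decarboxylating dehydrogenase, was at 74.4, 92.2 and 103 CPM under Glu-lim, 175, 221 and 227 under OxGlu-lim, 62.7, 68.6 and 78.9 under Et-lim and 71.4, 85.0 and 139 under N-lim. Its OxGlu-lim libraries stood above all others, and its 3 MC untagged N-lim libraries were above all those of Glu-lim and Et-lim. It rose by 1.22 ± 0.05 (adjusted p = 2.63e-19) under OxGlu-lim. Its small rise under N-lim, 0.13 ± 0.05, was not called without MC tagged N-lim replicate 3 (0.09, adjusted p = 0.0666). That rise is a mean of sets that differed. In the MC tagged set, N-lim libraries (82.5, 71.4 and 101 CPM) overlapped those of Glu-lim (92.2, 83.7 and 92.6 CPM).

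ERG28, which encodes a scaffold that tethers the demethylation enzymes, spanned 93.6, 104 and 113 CPM under Glu-lim, 179, 235 and 274 under OxGlu-lim, 54.7, 61.4 and 71.3 under Et-lim and 54.9, 71.7 and 98.0 under N-lim. The OxGlu-lim values stood clear of the rest, and N-lim overlapped with both Et-lim and Glu-lim. The rise was 1.17 ± 0.08 (adjusted p = 2.28e-14). ERG27, the keto reductase of the same complex, rose by 0.63 ± 0.04 (adjusted p = 3.37e-15).

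The last steps split from each other. ERG4, the final reductase, was at 159, 219 and 246 CPM under Glu-lim, 355, 429 and 579 under OxGlu-lim, 147, 242 and 269.6 under Et-lim and 90.6, 128 and 174 under N-lim. Glu-lim, Et-lim and N-lim overlapped, and OxGlu-lim was above them all. It rose by 0.99 ± 0.09 (adjusted p = 1.36e-10) under OxGlu-lim and fell by 0.81 ± 0.09 under N-lim, and was not called under Et-lim (0.09, adjusted p = 0.402), unlike the other 13 genes.

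ERG2, the C-8 isomerase, rose by 0.76 ± 0.07 (adjusted p = 3.31e-11) under OxGlu-lim and fell by 1.03 under N-lim and by 1.01 under Et-lim. ERG6, the C-24 methyltransferase, and ERG24, the C-14 reductase, fell under N-lim (-1.29 and -1.08) and Et-lim (-0.68 and -0.98) and were not called under OxGlu-lim (-0.04 and 0.05, adjusted p = 0.498 and 0.37). ERG7, lanosterol synthase, fell by 0.74 under N-lim, fell by 0.58 under Et-lim and rose by 0.32 under OxGlu-lim. ERG9, squalene synthase at the branch from farnesyl diphosphate, rose by 0.13 under N-lim and 0.41 under OxGlu-lim and fell under Et-lim (-0.27).

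**Figure D4:**
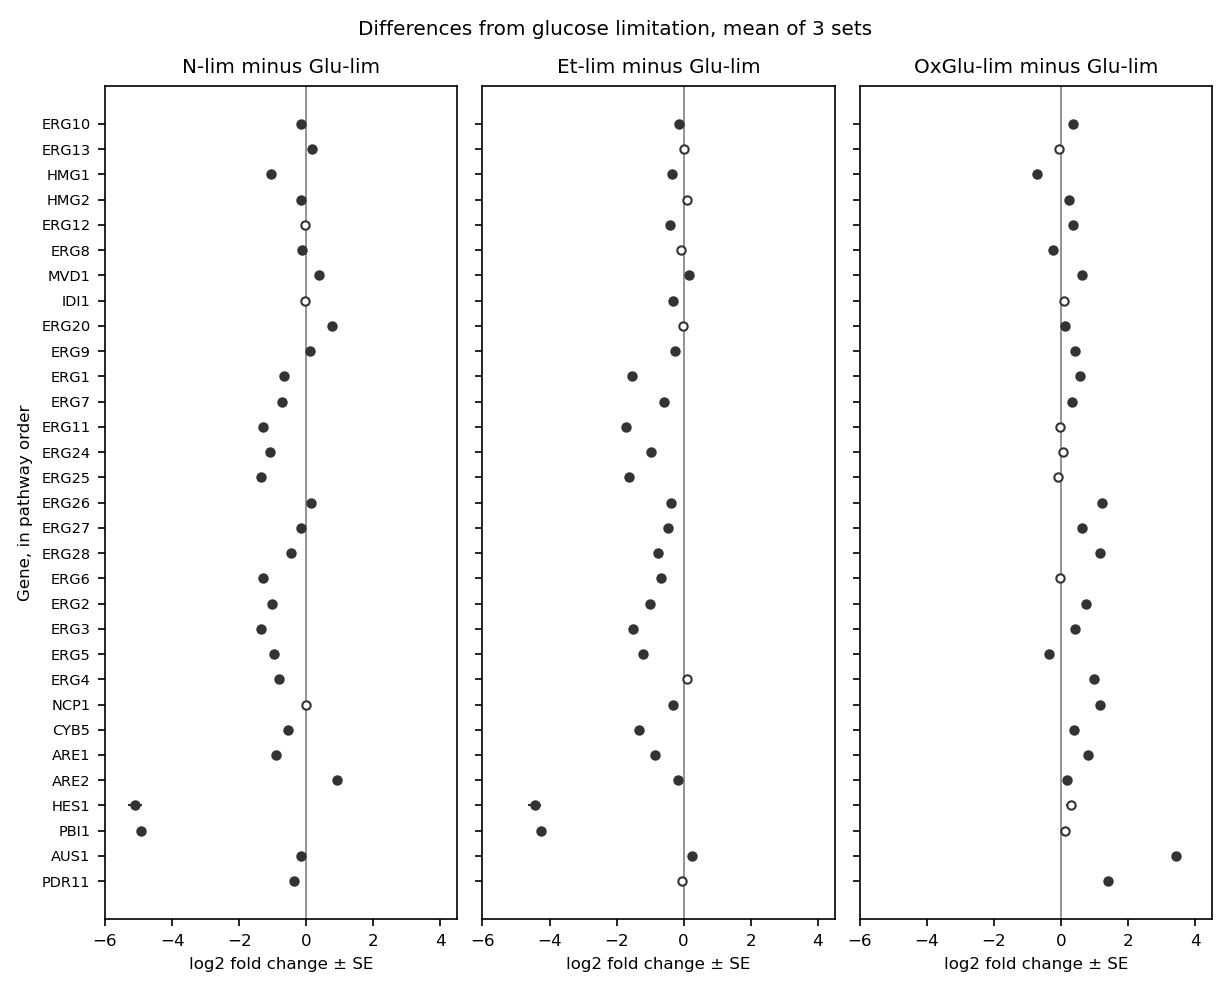
Log2 fold change of each sterol gene against Glu-lim, mean of 3 sets, in 3 panels (N-lim, Et-lim, OxGlu-lim); error bars are SE, mostly narrower than the points. Filled points are called (adjusted p under 0.05) and open points are not. HES1 and PBI1 lie near -5 and -4 on the left and middle panels, and AUS1 near 3 on the right.

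Electrons for these oxidations come from NCP1, the cytochrome P450 reductase, and CYB5, cytochrome b5. NCP1 libraries were at 128, 175 and 202 CPM under Glu-lim, 340.0, 400.3 and 445 under OxGlu-lim, 127, 139 and 152 under Et-lim and 135, 177 and 209 under N-lim. OxGlu-lim was far above the other 3, which overlapped. NCP1 rose by 1.17 ± 0.06 (adjusted p = 6.4e-17) under OxGlu-lim, fell by 0.32 under Et-lim and was not called under N-lim (-0.00 ± 0.06, adjusted p = 0.986).

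CYB5 differed by set as well as by limitation. It was at 76.3, 87.1 and 71.7 CPM in DASGIP tagged, 126, 114 and 126 in MC tagged and 96.2, 92.4 and 90.6 in MC untagged Glu-lim libraries. The 3 MC tagged libraries were the highest of the 9 and reached the OxGlu-lim range of 114, 124 and 153 CPM. Under Et-lim CYB5 held 31.3, 37.4 and 50.1 CPM and under N-lim 44.8, 72.2 and 82.2 CPM. Its difference under OxGlu-lim was 0.39 ± 0.05 (adjusted p = 2.11e-07) as a mean, and by set 0.64, -0.04 (not called) and 0.59 in that order. Under Et-lim it fell in all 3 sets, with a mean of -1.33 ± 0.06 (adjusted p = 2.28e-18).

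ARE1 and ARE2, which esterify sterols for storage in lipid droplets, went in opposite directions under N-lim. ARE1 spanned 33.9, 48.6 and 71.7 CPM under Glu-lim, 65.3, 91.2 and 108 under OxGlu-lim, 23.2, 28.1 and 31.3 under Et-lim and 20.6, 28.7 and 30.4 under N-lim. Et-lim and N-lim overlapped below all others, and the top of Glu-lim, the MC tagged libraries, overlapped with OxGlu-lim. ARE1 rose by 0.80 ± 0.07 (adjusted p = 6.18e-12) under OxGlu-lim and fell by 0.90 ± 0.07 under N-lim and fell by 0.85 ± 0.07 under Et-lim. YCR050C, on the other strand, overlaps the ARE1 gene, and its count was 19.0% to 27.5% of that of ARE1. Whether counting used strand is not given in the sources used here, so ARE1 values are uncertain to that extent.

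ARE2 held 159, 172 and 248 CPM under Glu-lim, 162, 204 and 279.6 under OxGlu-lim, 143, 166 and 212 under Et-lim and 273, 338 and 482 under N-lim. N-lim reached highest, overlapping only with the top of OxGlu-lim. ARE2 rose under N-lim by 0.92 ± 0.07 (adjusted p = 5.22e-13), with 0.90, 0.93 and 0.94 in the 3 sets. The ratio of ARE1 to ARE2 per kilobase within a library was 0.0663 to 0.1 under N-lim and 0.316 to 0.623 under OxGlu-lim. Small calls of ARE2 under Et-lim (-0.17, adjusted p = 0.0385) and OxGlu-lim (0.17, adjusted p = 0.0272) ended with 9 and 3 of the single libraries left out, with values from -0.17 to -0.13 and from 0.13 to 0.15. The 3 were DASGIP tagged, MC tagged and MC untagged OxGlu-lim replicates 1, 3 and 1.

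The steepest differences of the 31 were those of HES1 and PBI1. HES1 (YOR237W, chromosome XV, 781994 to 783298) encodes a member of the oxysterol-binding protein family. It was at 56.0, 55.1 and 28.6 CPM in DASGIP tagged, 67.3, 70.3 and 69.9 in MC tagged and 63.2, 44.7 and 39.8 in MC untagged Glu-lim libraries. Under OxGlu-lim HES1 was at 47.2, 57.0 and 57.4 CPM in DASGIP tagged, 95.3, 99.9 and 46.2 in MC tagged and 69.0, 66.1 and 69.9 in MC untagged libraries. The ranges of these limitations overlapped, and the 2 highest were MC tagged OxGlu-lim libraries.

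Under Et-lim HES1 was at 2.03, 2.05 and 2.41 CPM in DASGIP tagged, 3.95, 3.09 and 1.59 in MC tagged and 2.17, 1.97 and 3.23 in MC untagged libraries. Under N-lim it was at 1.31, 2.05 and 1.66 CPM in DASGIP tagged, 1.25, 1.53 and 4.43 in MC tagged and 1.35, 0.848 and 0.727 in MC untagged libraries. All lay far below the lowest Glu-lim library, and the ranges of Et-lim and N-lim overlapped. HES1 was 34.2-fold lower under N-lim than under Glu-lim (-5.10 ± 0.21, adjusted p = 1.49e-19) and 21.8-fold lower under Et-lim (-4.45 ± 0.20, adjusted p = 7.5e-18). The OxGlu-lim difference was 0.30 ± 0.15 (adjusted p = 0.0751). N-lim was lower than Et-lim by 0.65 ± 0.28 (adjusted p = 0.0368), a call that ended without any 1 of 9 libraries (-0.64 to -0.55) and was -0.02 with library size alone.

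PBI1 (YPL272C, chromosome XVI, 26611 to 28164) had a like pattern at a higher level. RefSeq describes its product as hypothetical and its expression as induced by ketoconazole, an azole. PBI1 was at 283, 278 and 194 CPM in DASGIP tagged, 308, 329.6 and 369.9 in MC tagged and 396, 325 and 311 in MC untagged Glu-lim libraries. Under OxGlu-lim it was at 242, 244 and 293 CPM in DASGIP tagged, 549, 585 and 332 in MC tagged and 277, 305 and 293 in MC untagged libraries. Those limitations overlapped, with MC tagged OxGlu-lim replicates 1 and 2 the highest of all.

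Under Et-lim PBI1 was at 14.5, 18.5 and 19.6 CPM in DASGIP tagged, 15.9, 14.7 and 15.8 in MC tagged and 15.7, 15.1 and 14.3 in MC untagged libraries. Under N-lim it was at 9.52, 8.01 and 9.20 CPM in DASGIP tagged, 12.7, 10.1 and 15.5 in MC tagged and 8.47, 10.5 and 8.61 in MC untagged libraries. All lay far below the lowest Glu-lim library. PBI1 was 30.2-fold lower under N-lim (-4.92 ± 0.11, adjusted p = 6.72e-26) and 19.2-fold lower under Et-lim (-4.27 ± 0.11, adjusted p = 6.65e-24) than under Glu-lim, and the OxGlu-lim difference was 0.12 ± 0.09 (adjusted p = 0.268). By set the last was 0.04 in DASGIP tagged, 0.54 in MC tagged and -0.24 in MC untagged libraries, of which that of MC tagged was called. Without MC tagged OxGlu-lim replicate 2 it was 0.39 and not called (adjusted p = 0.0627).

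AUS1 and PDR11 encode ABC transporters that take up sterol when synthesis is blocked, and both were high under OxGlu-lim. AUS1 (YOR011W, chromosome XV, 349679 to 353863) was at 395, 417 and 515 CPM in DASGIP tagged, 848, 689 and 633 in MC tagged and 628, 648 and 698 in MC untagged OxGlu-lim libraries. It held 47.8, 56.2 and 64.5 CPM under Glu-lim, 57.5, 67.4 and 71.6 under Et-lim and 34.9, 53.3 and 60.9 under N-lim. The OxGlu-lim libraries stood far above the other 27, which overlapped, and DASGIP tagged was the lowest of the 3 sets there. AUS1 was 10.7-fold higher under OxGlu-lim than under Glu-lim (3.42 ± 0.06, adjusted p = 4.44e-28).

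Among the other limitations, AUS1 differences were small. Against Glu-lim, N-lim gave -0.48 in DASGIP tagged and -0.23 in MC tagged but 0.24 in MC untagged libraries, all called, and the mean of -0.16 turned to 0.27 with library size alone. The calls of MC tagged and MC untagged ended without any 1 of 4 and of 5 libraries, with adjusted p from 0.0519 to 0.148 and from 0.0522 to 0.128. Et-lim gave 0.13, 0.14 and 0.47 in the same order, of which the last was called.

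PDR11 (YIL013C, chromosome IX, 328207 to 332442) was at 137, 122 and 131 CPM in DASGIP tagged, 191, 178 and 173 in MC tagged and 154, 154 and 162 in MC untagged OxGlu-lim libraries. The 3 sets did not overlap with each other there. It held 47.6, 58.2 and 67.3 CPM under Glu-lim, 46.6, 54.0 and 68.0 under Et-lim and 40.8, 44.7 and 51.4 under N-lim, all below every OxGlu-lim library. PDR11 was 2.64-fold higher under OxGlu-lim than under Glu-lim (1.40 ± 0.05, adjusted p = 1.52e-20). Per kilobase, the median of AUS1 rose from 13.4 CPM per kb under Glu-lim to 151 under OxGlu-lim, and that of PDR11 from 13.7 to 36.3.

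**Figure D5:**
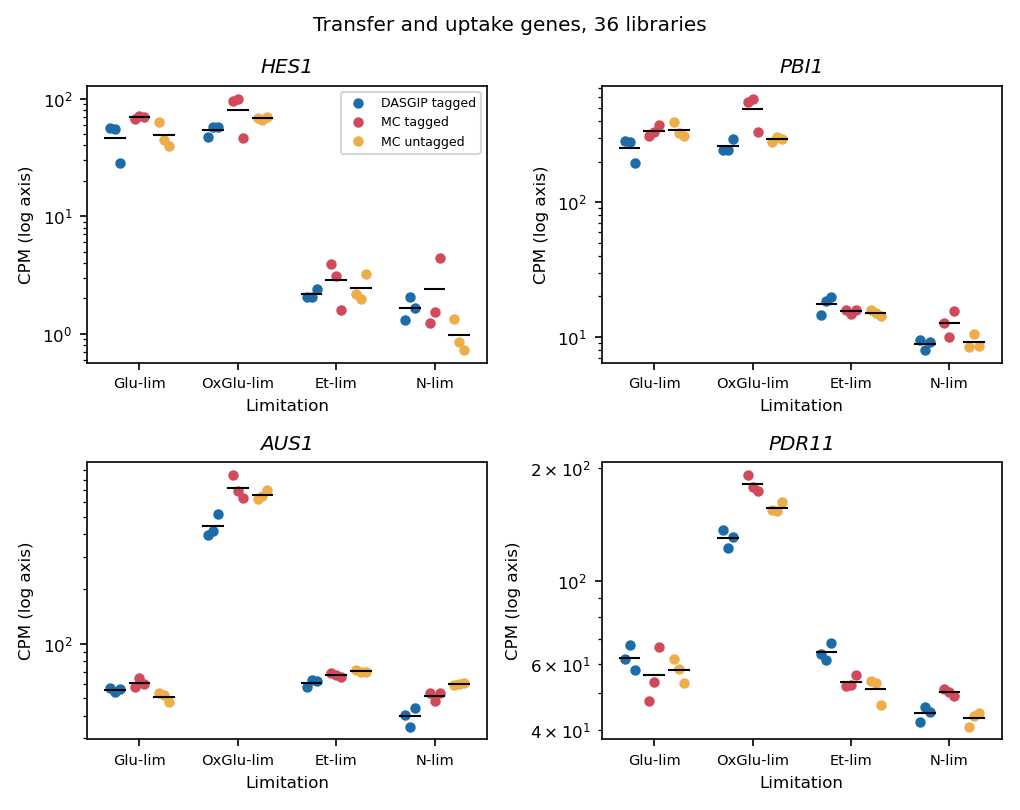
CPM (log axis) of HES1, PBI1, AUS1 and PDR11 in all 36 libraries, by limitation. Points are libraries coloured by set and bars are means of 3. HES1 and PBI1 are high under Glu-lim and OxGlu-lim and low under Et-lim and N-lim, and AUS1 and PDR11 are high under OxGlu-lim.

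The vessel comparison asked how the tagged strain in MC vessels differed from that in 1 L reactors, and the strain comparison how tagged and untagged strains differed in MC vessels; they share the MC tagged libraries. As a mean of the 4 limitations, MC tagged against DASGIP tagged had 13 sterol genes higher and 0 lower, where 17.1% and 17.3% of all genes were called. DESeq2 also called 0 lower, 1 gene (ERG1) was lower at an unadjusted p under 0.05, and edgeR called 1 or 2 lower without DASGIP tagged Et-lim replicate 2, Glu-lim replicate 3 or OxGlu-lim replicate 3, or MC tagged N-lim replicate 3 or OxGlu-lim replicate 1. The median difference was 0.06. The largest were HES1 (0.53 ± 0.18), ARE1 (0.44 ± 0.06, adjusted p = 1.06e-06), PBI1 (0.42 ± 0.09) and AUS1 (0.34 ± 0.05). HES1 lost its call without DASGIP tagged N-lim replicate 1, MC tagged Et-lim replicate 1 or MC tagged N-lim replicate 3, the last giving 0.33 (adjusted p = 0.173). With each library left out in turn, 9 to 13 genes were higher. Any 1 of 13 libraries ended the call of IDI1, any 1 of 8 that of ERG2, and any 1 of 5 that of ERG3 or of ERG24. The values of these 4 genes were then from 0.089 to 0.155. With library size alone the split was 4 higher and 6 lower.

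Of the genes called under Glu-lim, ARE1 and CYB5 had the largest vessel differences, by which MC tagged exceeded DASGIP tagged: 0.92 and 0.64. Under OxGlu-lim the largest were PBI1 (0.91) and AUS1 (0.71). Under Et-lim ERG1 (-0.50) and ERG11 (-0.43) were lower in MC tagged libraries, and ERG11 was no longer called when DASGIP tagged Et-lim replicate 3 or MC tagged Et-lim replicate 2 or 3 was left out (adjusted p up to 0.0512). An F test across limitations called 14 of the 31 for a vessel difference that varied by limitation, beside 24.1% of all genes. The count was 11 to 16 with each library left out in turn. It was 10 when only the libraries compared were fitted, and 10 with library size alone. Single libraries ended the calls of ERG8 (any 1 of 16), ERG24 (any 1 of 6), ERG13 (any 1 of 5) and NCP1 (any 1 of 4).

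MC tagged against MC untagged had 2 sterol genes higher and 11 lower (8.38% and 9.77% of all genes), with a median of -0.09. ARE2 (-0.45 ± 0.06, adjusted p = 6.03e-06), HMG1 (-0.35 ± 0.06, adjusted p = 0.00038) and MVD1 (-0.32 ± 0.05, adjusted p = 2.43e-05) were the lowest in the tagged strain. HMG1 was at 553, 543 and 552 CPM in the MC tagged and 783, 754 and 727 CPM in the MC untagged Glu-lim libraries, which did not overlap. The 2 higher were PBI1 (0.30 ± 0.09, adjusted p = 0.0139) and HES1 (0.57 ± 0.19). The HES1 call ended when any 1 of 12 MC libraries was left out, and without MC tagged N-lim replicate 3 the difference was 0.37 (adjusted p = 0.172). With library size alone the split was 10 higher and 5 lower, and the small difference of IDI1 (-0.15) turned to 0.002.

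Under N-lim the tagged strain was lower for ERG26 (-0.69), MVD1 (-0.61), ERG4 (-0.57), ERG13 (-0.56) and ARE2 (-0.55), all called, and higher for HES1 (1.31, adjusted p = 0.0495). That HES1 difference rested on MC tagged replicate 3, at 4.43 CPM: without it the value was 0.52 (adjusted p = 0.518). Its call ended without any 1 of 24 libraries. An F test called 17 of the 31 for a strain difference that varied by limitation, not far from the 47.7% of all genes. With each library left out in turn the count was 13 to 19. Single libraries ended the calls of ERG12, ERG2, ERG20, ERG25, ERG5, ERG6 and MVD1, and of ARE1, PBI1 and ERG4 as given below.

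Of 50 related genes on lists of regulators, reductase degradation, ester hydrolysis, acetylation and export, other transfer proteins, isoprenoid branches and enzyme partners, N-lim against Glu-lim had 17 higher and 20 lower, Et-lim 23 and 12, and OxGlu-lim 25 and 7. As shares of the 50 these were 34% and 40%, 46% and 24%, and 50% and 14%, beside 34.3% and 37.4%, 30.6% and 28.7%, and 32.9% and 32.3% of all genes, so those of N-lim were near the background. Their medians were -0.07, 0.11 and 0.14. UPC2, the regulator named above, fell by 1.84 ± 0.08 under N-lim, fell by 1.77 ± 0.08 under Et-lim and rose by 0.46 ± 0.08 (adjusted p = 5.75e-06) under OxGlu-lim. Its paralog ECM22 fell under N-lim (-0.90) but rose under Et-lim (0.30) and OxGlu-lim (0.42).

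Among the other regulators, SUT1, a factor linked to sterol uptake, rose by 1.62 ± 0.14 (adjusted p = 4.29e-11) under OxGlu-lim and fell under N-lim (-1.33). HAP1, the tagged gene, fell under N-lim (-1.16) and Et-lim (-0.79) and was not called under OxGlu-lim (0.06). ATF2, the acetyltransferase that acts on sterols, rose by 2.21 ± 0.10 (adjusted p = 1.73e-18) under OxGlu-lim and fell under N-lim (-1.99) and Et-lim (-1.73).

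DAP1, the haem protein that supports Erg11, fell by 1.70 under N-lim, fell by 1.17 under Et-lim and rose by 0.28 under OxGlu-lim. YEH1, a sterol ester hydrolase, rose under OxGlu-lim (1.10) and N-lim (0.20) and fell under Et-lim (-0.61). The 6 genes of HMG-CoA reductase degradation, HRD1 among them, had 1 higher and 1 lower under OxGlu-lim, and the 15 other transfer proteins had 7 higher and 5 lower there, against 32.9% and 32.3% of all genes. As a check on the label, the low-oxygen genes DAN1 (6.14), TIR1 (6.52) and ANB1 (5.98) and the haem gene HEM13 (2.78) rose under OxGlu-lim. Of the cytochrome c genes on the same list, CYC7 rose (1.56) and CYC1 fell (-0.57).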

How the data were processed

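The 36 libraries (4 limitations in 3 sets, 3 libraries each) were made with a stranded total RNA kit after ribosomal RNA removal, per the labels' protocols. The submitters' processing notes name Bowtie2, SAMtools, bedtools and build R64, without roles or versions. The files as deposited hold whole-number read counts per gene for 7122 gene lines, with 4 empty lines that were skipped, and 36 columns of CPM values by the authors, which were not used. The rule by which reads were counted is not given in the sources used here.

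Counts were fitted over all 12 groups with edgeR 4.0.16 (quasi-likelihood F test, TMM, R 4.3.3), with 24 residual degrees of freedom, on 6612 genes that passed filterByExpr; DESeq2 1.42.0 was an alternative, as were other factors and filters and each library left out. The fit was checked on simulated data. Mean comparisons average 3 sets or 4 limitations. P-values measure only the spread between these libraries, described as biological triplicates with no further detail. Replicates correlated at 0.975 to 0.995. The genes, lists and motifs were chosen with earlier results of these data known; named genes were those of the oxygen-using, reductase, electron donor, esterification, transfer and uptake steps plus the largest rises and falls. Levels between genes use coding length from RefSeq R64 (S288C), which also gave promoter sequence; 6045 lines matched it.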

Additional observations from a re-analysis of the deposited data

Results flagged for a closer look

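The values here are differences between sets that were not the same in every limitation. For each gene the F test across limitations was called and the log2 difference between sets spread over more than 1.5-fold from one limitation to another; the spread is the highest minus the lowest of the 4 differences.

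For the vessel difference (MC tagged minus DASGIP tagged), the widest spread was that of PBI1, the gene listed with sterol transfer, at 1.089, from 0.91 under OxGlu-lim to -0.18 under Et-lim. ARE1 spread over 0.788 (0.92 under Glu-lim, 0.13 under Et-lim), PDR11 over 0.744 (0.48 under OxGlu-lim, -0.26 under Et-lim) and CYB5 over 0.681 (0.64 under Glu-lim, -0.04 under OxGlu-lim). ERG25 spread over 0.691, from 0.44 under OxGlu-lim to -0.25 under Et-lim. ERG1, ERG11, ERG6 and ERG5 were each highest under N-lim and lowest under Et-lim, with spreads of 0.632, 0.639, 0.616 and 0.643.

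For the strain difference (MC tagged minus MC untagged), PBI1 spread over 0.779 (0.74 under OxGlu-lim, -0.04 under Glu-lim), ERG4 over 0.762 (0.19 under OxGlu-lim, -0.57 under N-lim) and CYB5 over 0.706 (0.39 under Glu-lim, -0.32 under Et-lim). ARE1 spread over 0.612 and ERG26 over 0.599, both lowest under N-lim. Single libraries ended some of these calls: for ARE1, MC untagged Glu-lim replicate 3 (adjusted p = 0.0576), for PBI1, MC tagged OxGlu-lim replicates 1 and 2 (adjusted p from 0.0529 to 0.0569), and for ERG4, any of 6 libraries (adjusted p from 0.0505 to 0.113), all in edgeR. Vessel and strain comparisons share the MC tagged libraries. The share of sterol genes called in the strain F test was not far from the 47.7% of all genes. What these spreads depend on was not tested.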

How the results depend on the processing

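DESeq2 size factors, upper-quartile factors, no filter or a stricter filter on low counts, removal of mitochondrial, ribosomal and small RNA lines, and DESeq2 left the counts of sterol genes called in the mean comparisons within 1.5 times those reported. With library size alone, chosen after seeing the data, the counts became 14 higher and 14 lower for N-lim against Glu-lim, 0 higher for Et-lim against Glu-lim, 1 lower for OxGlu-lim against Glu-lim, 26 higher and 1 lower for N-lim against Et-lim, 0 lower for OxGlu-lim against Et-lim, 4 higher and 6 lower for the vessel and 10 higher and 5 lower for the strain comparison. In that setting 17 of 188 called differences changed sign: under N-lim against Glu-lim ERG10 (0.262), HMG2 (0.264), ERG8 (0.308), ERG27 (0.282), AUS1 (0.268) and PDR11 (0.073), under Et-lim against Glu-lim MVD1 (-0.061), and under OxGlu-lim against Glu-lim ERG8 (0.039). Against Et-lim, N-lim turned for HMG2 (0.36), ERG7 (0.476), ERG6 (0.018), AUS1 (0.23) and PDR11 (0.342), and OxGlu-lim for HMG1 (0.119) and ERG8 (0.325). IDI1 turned for N-lim against OxGlu-lim (0.022) and for the strain (0.002). Mitochondrial reads differ between limitations, and the cause was not tested.

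Leaving out each library in turn gave 1 to 3 higher for Et-lim against Glu-lim and 1 to 3 higher for the strain comparison. For the vessel comparison it gave 9 to 13 higher and 0 to 2 lower. Same-numbered libraries of a set had correlations of deviations from -0.178 to 0.293 (median 0.024), with 12 of 54 pairs over 0.1. Differently numbered libraries of a set had -0.382 to 0.231 (median -0.001), with 14 of 108 pairs over 0.1. These values cannot exclude that replicate numbers pair libraries. A replicate block left N-lim against Glu-lim at 6 higher and 22 lower, ended the call of ERG20 under OxGlu-lim against Glu-lim (0.103, adjusted p = 0.0683), and gave 13 and 15 genes with a vessel or strain difference that varied by limitation. Depth limits HES1 most, since its lowest count was 13.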

Other observations

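Other genes that act on sterols also differed between limitations. Against Glu-lim, PRY1, which encodes a sterol-binding export protein, was higher under N-lim (1.37), Et-lim (0.46) and OxGlu-lim (1.56). ERG29, a partner of the sterol methyl oxidase, was lower under N-lim (-1.02) and Et-lim (-0.30) and higher under OxGlu-lim (0.49). TGL1, a sterol ester hydrolase, was higher in all 3 (0.33, 0.27 and 0.32), while YEH2 was lower under Et-lim (-0.25) and higher under OxGlu-lim (0.43). Of the transfer proteins, LAM4 was lower under OxGlu-lim (-0.86), and of the isoprenoid branches COX10, which acts on the route to haem A, was higher there (0.68). All of these were called by edgeR's quasi-likelihood test on the TMM scale.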
